A study of Mus musculus with 32 samples.

Results

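The 35 genes described here encode subunits of the Polycomb repressive complexes PRC1 and PRC2, the 4 trithorax methyltransferases Kmt2a to Kmt2d, and the histone demethylase Kdm6b. They were taken by gene symbol from the 55573 genes in each library's table. By role they are 4 PRC2 core subunits, 5 PRC2 accessory subunits, 2 catalytic subunits of PRC1, 6 PCGF subunits, 8 subunits of canonical PRC1, 5 of variant PRC1, the 4 methyltransferases and the 1 demethylase. All 35 passed the filter on low counts. The rule goes by gene symbol and has no threshold on measured values, but the set was chosen with earlier results of these data known.

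Mouse embryonic stem cells, abbreviated ESC, came from strain 129S5/SvEvBrd. Their Smarce1 gene, which encodes BAF57 of the SWI/SNF remodeler, carries a tag called MD or its variant MD(R42A). From general knowledge MD is a degron that removes a protein as cells leave mitosis and R42A its inactive form. The labels do not spell this out. Every group carries 1 of the 2 tags, so no untagged cells were compared. ESC were grown on gelatin with LIF and serum, as 4 R42A clones (A04, A10, A01 and A02) and 4 MD clones (09, 30, 45 and 47) with 3 libraries each. Neural cells had spent 6 days in a neural medium, under the clone labels A04 and A10 for R42A and 09 and 30 for MD, with 2 libraries each. Clone values below always follow this order. The libraries of a clone were summed, so n is 4 clones in ESC and 2 clone labels in neural cells. Clones A04, A10, 09 and 30 belong to a first run of library numbers in ESC, the other 4 clones to a second, and all neural cells to a further one, so stage and library run cannot be told apart.

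Libraries held 38699951 to 96424439 counts in total. Levels are given as CPM, counts scaled to the library total after TMM adjustment of the totals between libraries. Smarce1 itself lay between 95.3 and 129 CPM in R42A ESC, 112 and 125 in MD ESC, 229.7 and 233 in R42A neural cells and 289.7 and 299 in MD neural cells. By the general knowledge given above the tag acts on the protein, so this RNA level does not check the labels. Genes of chromosome 11 as a whole were higher in MD, with a median log2 difference of 0.45 in ESC and 0.48 in neural cells, and genes of chromosome 8 were lower, at -0.45 and -0.28. Of the 35 genes 6 lie on chromosome 11, namely Ezh1, Suz12, Pcgf2, Cbx2, Cbx8 and Kdm6b, and 0 on chromosome 8. For these 6 a value with each chromosome scaled separately is given beside the main one. Some genes of other chromosomes also moved under that scaling, and for several of them that value is given too. The summed level of 10 ESC markers was 5891 to 7437 CPM in R42A ESC and 4972 to 6192 CPM in MD ESC. In neural cells it was 252.7 to 260.5 CPM in R42A and 332.3 to 340.6 CPM in MD. Of these 10, 0 were called higher in MD and 7 lower in ESC (edgeR, adjusted p under 0.05). In neural cells 5 were called higher in MD and 2 lower. Over all genes 17.1% were higher and 19.4% lower in ESC, and 17.4% and 16.3% in neural cells. The summed level of 10 neural progenitor markers was 216 to 576 CPM in ESC and 2889 to 3104 CPM in neural cells. The 10 neuron markers summed to 789 to 812 CPM in R42A neural cells and 2118 to 2142 CPM in MD neural cells, and the 10 endoderm markers to 371 to 400.3 and 166 to 179.6 CPM. The 10 mesenchyme and smooth muscle markers summed to 14.4 to 35.1 CPM in R42A ESC and 63.0 to 114 in MD ESC. In neural cells they summed to 230.2 to 243 in R42A and 143 to 147 in MD. The single genes did not all follow that lower sum. In MD neural cells 6 of the 10 were called higher and 3 lower, against 17.4% and 16.3% of all genes. Tagln and Acta2 were at -4.82 ± 0.51 and -4.40 ± 0.60 on the log2 scale, and Lum at 2.43 ± 0.45. The 8 glia markers summed to 68.8 to 70.6 CPM in R42A neural cells and 56.4 to 59.0 in MD neural cells. In bulk RNA, fewer cells of a type and less RNA per cell cannot be told apart.

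Polycomb proteins keep developmental genes silent. PRC2 methylates histone H3 at lysine 27 through EZH1 or EZH2, which work only with SUZ12 and EED, while PRC1 ubiquitinates histone H2A through RING1 or RNF2. Each PRC1 complex is built around 1 PCGF protein. Canonical PRC1 adds a CBX protein that reads the PRC2 mark and a PHC protein that clusters chromatin, and variant PRC1 adds RYBP or YAF2 instead. Trithorax proteins of the KMT2 family methylate lysine 4 of the same histone and oppose Polycomb silencing, and KDM6B removes the PRC2 mark. In stem cells CBX7 is known as the main canonical CBX protein, and other CBX proteins take over in differentiated cells.

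The first question is how this machinery differs between ESC and neural cells. The fits compare neural cells with the ESC clones of the first run, which carry the same labels. In R42A cells 17 of the 35 genes were called higher in neural cells than in ESC and 13 lower (edgeR, adjusted p under 0.05, named a call from here on). Over all 23844 genes tested 37.9% were called higher and 40.4% lower. In MD cells 16 were called higher and 15 lower, against 40.3% and 41% over all genes. The median log2 change of the 35 was 0.24 in R42A and 0.17 in MD, and that of all genes -0.06 and -0.02. Of the 35 genes 14 were called higher in both genotypes and 12 lower in both, against 33.2% and 34.8% of all genes. Within several families paralogs moved in opposite directions. Set against the ESC clones of both runs, the neural values of 14 of the 17 genes called higher in R42A lay above all 4 clones (all but Pcgf2, Kdm2b and Kmt2b), and those of the 13 called lower lay below all 4. Of all genes called in R42A 88.5% of those higher and 90.7% of those lower did so. In MD this held for 13 of 16 (all but Pcgf2, Cbx6 and Kmt2b) and 11 of 15 (all but Aebp2, Pcgf5, Scmh1 and Kmt2c), against 90.1% and 92.5% of all genes called. Where a gene's neural values fall inside the ESC range, its direction holds against the first run alone. No label says that replicate libraries or clones came from separate experiments, so the p-values measure the spread between these clone sums.

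**Figure D1:**
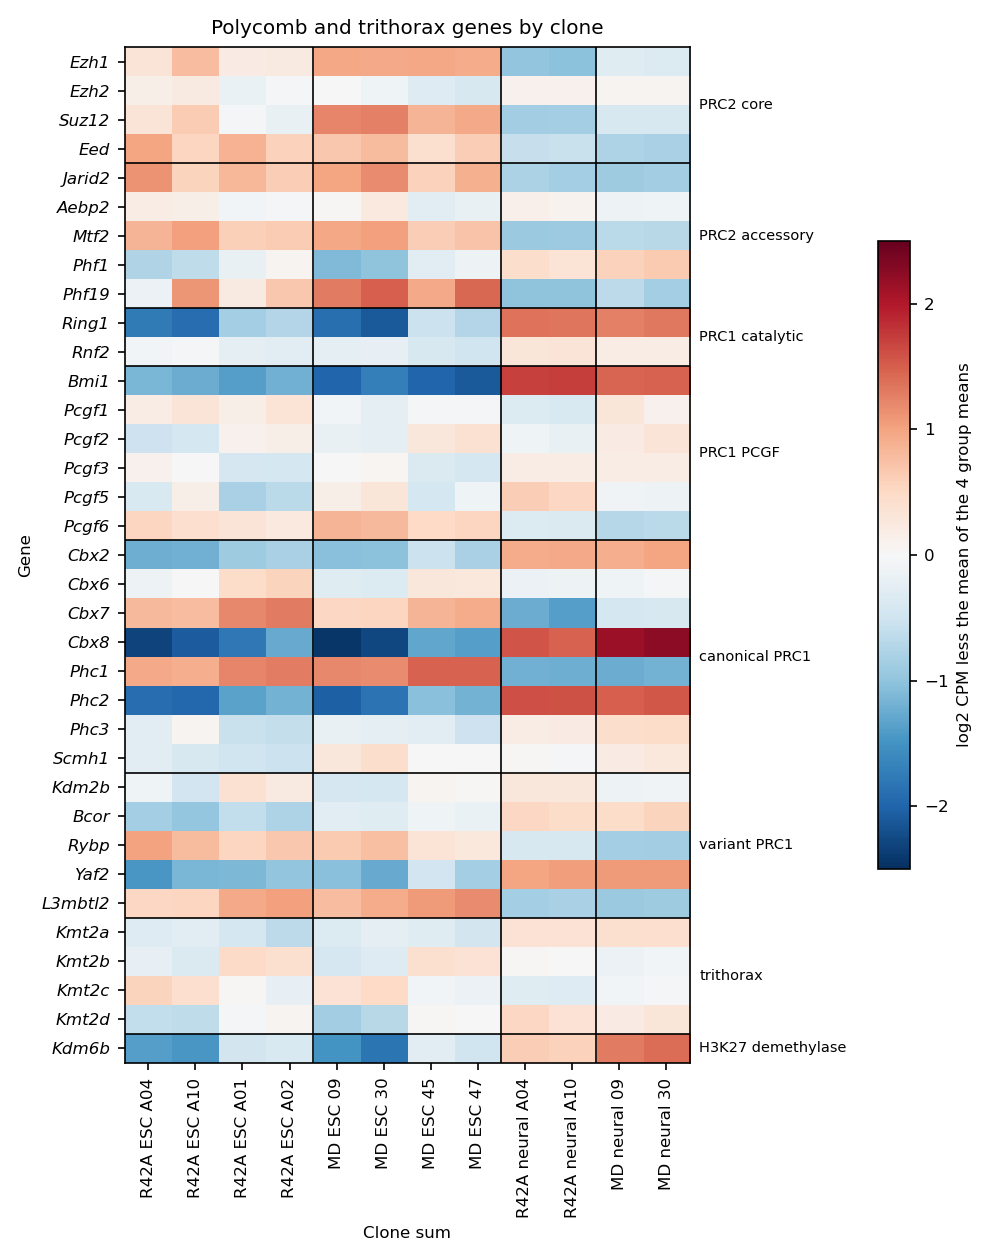
Level of the 35 genes (rows, by role) in each of the 12 clone sums (columns), as log2 CPM less the mean of the 4 group means of that gene; red is higher and blue lower. Ring1, Bmi1, Cbx2, Cbx8, Phc2, Yaf2 and Kdm6b are red in the neural columns and blue in ESC, while Suz12, Eed, Jarid2, Mtf2, Cbx7, Phc1 and L3mbtl2 show the reverse.

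Genes of the PRC2 core were lower in neural cells with the exception of Ezh2. Suz12, whose product holds the complex together, lay at 312, 388, 239 and 219.5 CPM in the R42A ESC clones and 583, 598, 448 and 479.6 in the MD ESC clones. In neural cells it was at 136 and 137 CPM in R42A and 188 and 188 in MD, below every ESC clone. It fell by 1.41 ± 0.10 on the log2 scale (± SE) in R42A (adjusted p = 1.01e-05) and by 1.73 ± 0.10 in MD (adjusted p = 3.24e-06). With each chromosome scaled separately these changes were -1.25 and -1.57. Eed, the subunit that binds the PRC2 mark and stimulates the enzyme, was at 233, 169, 213 and 176 CPM in R42A ESC and 187, 202, 156 and 179 in MD ESC. It went to 78.7 and 79.7 CPM in R42A neural cells and 68.7 and 66.4 in MD neural cells, a fall of 1.39 ± 0.13 and 1.60 ± 0.13 (adjusted p = 4.58e-05 and 2.01e-05). All neural values lay below all ESC values.

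The 2 catalytic paralogs parted. Ezh1, the enzyme typical of non-dividing cells, was at 44.1, 59.5, 40.5 and 40.9 CPM in R42A ESC, 68.04, 67.6, 68.1 and 66.98 in MD ESC, 17.7 and 17.2 in R42A neural cells and 28.4 and 27.5 in MD neural cells. It fell by 1.63 ± 0.14 in R42A and 1.36 ± 0.13 in MD (adjusted p = 2.36e-05 and 5.35e-05, and log2 changes of -1.46 and -1.20 with each chromosome scaled separately). Ezh2, the enzyme of dividing cells, was not called, with log2 changes of -0.13 ± 0.06 and 0.03 ± 0.06 (adjusted p = 0.0637 and 0.599). Its values were 241, 256, 194 and 209.9 CPM in R42A ESC and 234 and 236 in R42A neural cells, and 219, 203, 174 and 166 CPM in MD ESC and 227 and 228 in MD neural cells. Per kilobase of exon, Ezh1 made up 15.5% ± 1.38 (SD, n = 4) of the summed Ezh1 and Ezh2 level in R42A ESC and 6.24% ± 0.152 (n = 2) in R42A neural cells. The sum itself was 39.9 ± 5.28 and 37.5 ± 0.152 CPM per kb.

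Jarid2 and Mtf2, the most abundant accessory subunits of PRC2 in ESC, both fell. Jarid2, a DNA-binding cofactor of the PRC2.2 form, went from 681, 462, 555 and 478 CPM in R42A ESC to 181 and 174 in neural cells, and from 617, 707, 467 and 576 to 169.6 and 172 in MD. The log2 changes were -1.74 ± 0.16 and -2.03 ± 0.16 (adjusted p = 4.58e-05 and 1.86e-05). Mtf2, a Polycomb-like protein that brings PRC2 to unmethylated CpG-rich DNA, went from 438, 499.5, 367 and 379 CPM to 129 and 130.1 in R42A and from 475, 495, 374 and 403 to 153 and 151 in MD. It fell by 1.90 ± 0.07 and 1.75 ± 0.07 (adjusted p = 4.96e-07 and 5.98e-07), and no neural value reached the ESC range.

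The other Polycomb-like genes are far less abundant and moved apart from each other. Phf19 went from 6.68, 15.8, 8.59 and 11.8 CPM to 3.67 and 3.698 in R42A and from 18.1, 20.9, 14.2 and 19.9 to 4.67 and 4.11 in MD, with log2 changes of -1.66 ± 0.36 and -2.23 ± 0.36 (adjusted p = 0.00399 and 0.000889). Phf1 rose instead, from 5.42, 5.91, 8.01 and 9.54 CPM to 12.3 and 11.6 in R42A and from 4.24, 4.51, 7.55 and 8.31 to 13.7 and 14.3 in MD. Its log2 changes were 1.03 ± 0.10 and 1.60 ± 0.10 (adjusted p = 4.65e-05 and 4.26e-06). Phf1 shares 1370 of its 3486 exon bases with Cuta on the other strand, so its count is uncertain. Per kilobase, Mtf2 still made up 84.55% ± 0.482 of the 3 Polycomb-like genes in R42A neural cells, after 94.6% ± 1.45 in ESC. Aebp2, another PRC2.2 subunit, fell in MD by 0.33 ± 0.07 (adjusted p = 0.00351), was not called in R42A at -0.10 ± 0.07 (adjusted p = 0.23), and lost the MD call without the label 30. The difference between the genotypes was -0.23 ± 0.10 and was not called (adjusted p = 0.143).

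Both catalytic subunits of PRC1 rose, by very different amounts. Ring1 lay at 6.27, 5.73, 11.9 and 12.8 CPM in the R42A ESC clones and 5.77, 4.997, 14.7 and 12.8 in the MD ESC clones. In neural cells it reached 54.6 and 53.7 CPM in R42A and 50.9 and 53 in MD, above every ESC clone. The log2 changes were 3.12 ± 0.09 and 3.19 ± 0.09 (adjusted p = 1.68e-07 and 1.38e-07), or 8.72-fold and 9.13-fold. Its paralog Rnf2, also named Ring1b and the main form in ESC, rose by 0.33 ± 0.04 and 0.33 ± 0.04 (adjusted p = 0.000304 and 0.000263). It went from 152, 156, 135 and 132 CPM to 198 and 201 in R42A and from 135, 139, 120.5 and 113 to 181 and 183 in MD. Ring1 made up 7.64% ± 3.38 of the 2 paralogs per kilobase in R42A ESC and 25.7% ± 0.416 in R42A neural cells. Their sum went from 37.6 ± 1.77 to 65.0 ± 0.280 CPM per kb.

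Ring1 was also among the genes that differed most between the ESC library runs. In the second run it was higher than in the first by 1.04 on the log2 scale in R42A and by 1.35 in MD. Kdm6b differed by 1.00 and 1.28 and Cbx8 by 0.68 and 1.01, and no other of the 35 differed by 1 or more. The runs hold different clones, so run and clone cannot be told apart.

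The PCGF subunit sets which kind of PRC1 is built. Bmi1 held a larger share of the RNA of the 6 PCGF genes in neural cells. Shares here and for the other families are of RNA, and the make-up of the complexes was not measured. Bmi1, also named Pcgf4 and a subunit of canonical PRC1 needed for self-renewal of neural stem cells, lay at 13.7, 12.9, 11.6 and 13.2 CPM in R42A ESC and 7.64, 9.27, 7.63 and 7.05 in MD ESC. It reached 99.1 and 101 CPM in R42A neural cells and 82.6 and 84.5 in MD neural cells. The log2 changes were 2.86 ± 0.09 and 3.23 ± 0.09 (adjusted p = 2.62e-07 and 1.57e-07), and ESC and neural values did not overlap. Pcgf6, part of a variant PRC1 that silences germline genes in ESC, fell by 0.89 ± 0.05 and 1.60 ± 0.05 (adjusted p = 3.3e-06 and 2.28e-07). It went from 90.2, 83.7, 77.7 and 73.8 CPM to 48.8 and 48.1 in R42A and from 112, 109, 87.3 and 90.04 to 38.01 and 38.8 in MD. Bmi1 thus made up 6.10% ± 0.436 of the 6 PCGF genes per kilobase in R42A ESC and 35.8% ± 0.799 in R42A neural cells, and Pcgf6 30.6% ± 3.06 and 13.7% ± 0.00392.

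Pcgf2, also named Mel18, is the other PCGF subunit of canonical PRC1. It lay at 48.5, 50.8, 74.6 and 76.7 CPM in R42A ESC, 61.1, 58.9, 83.8 and 90.8 in MD ESC, 64.4 and 60.8 in R42A neural cells and 80.4 and 86.1 in MD neural cells. It rose by 0.28 ± 0.06 and 0.39 ± 0.06 (adjusted p = 0.00391 and 0.000674), against the clones of the first run. With each chromosome scaled separately the values were 0.44 and 0.55, and without the label 30 the MD call was lost. Pcgf3, of a variant PRC1, was not called in either genotype, at 0.07 ± 0.04 and 0.09 ± 0.04 (adjusted p = 0.17 and 0.105).

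Pcgf1 and Pcgf5, both of variant PRC1, changed in R42A in opposite directions. Pcgf1 went from 8.33, 9.15, 8.14 and 9.29 CPM to 5.79 and 5.65 in R42A, a fall of 0.66 ± 0.12 (adjusted p = 0.0014), and from 7.05, 6.31, 7.15 and 7.195 to 9.02 and 7.94 in MD, where it was not called (0.27 ± 0.12, adjusted p = 0.0665). Pcgf5 went from 16.2, 23.2, 12 and 13.1 CPM to 32.04 and 29.8 in R42A, a rise of 0.60 ± 0.16 (adjusted p = 0.0106). In MD it went from 23.3, 25.7, 15.4 and 19.4 to 19.9 and 19.1 CPM, a fall of 0.41 ± 0.16 (adjusted p = 0.0477), at 0.0533 with the clone label as a block and 0.0947 with each chromosome scaled separately. Pcgf5 is thus 1 of 2 genes called in opposite directions in the 2 genotypes, and the call in MD was lost without 09 or 30.

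The CBX genes gave the plainest exchange. Cbx7, the CBX gene of stem cells, lay at 181, 176, 235 and 253 CPM in R42A ESC and 148, 150.1, 185 and 194 in MD ESC, and at 43.3 and 39.5 CPM in R42A neural cells and 75.7 and 78.4 in MD neural cells. It fell by 2.16 ± 0.06 in R42A and 1.03 ± 0.06 in MD (adjusted p = 1.27e-07 and 2.26e-06). Cbx2, whose product compacts nucleosomes, went from 35.7, 36.4, 45.1 and 47.9 CPM to 158 and 161 in R42A and from 40.5, 40.8, 57.3 and 47.97 to 157 and 167 in MD. It rose by 2.10 ± 0.05 and 1.92 ± 0.05 (adjusted p = 7.33e-08 and 8.87e-08, and 2.25 and 2.08 with each chromosome scaled separately).

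Cbx8, a further CBX protein of canonical PRC1, was the least abundant of the 35 in ESC. It lay at 0.591, 0.692, 0.848 and 1.23 CPM in R42A ESC and 0.547, 0.609, 1.19 and 1.14 in MD ESC, and at 8.76 and 8.21 CPM in R42A neural cells and 12.9 and 13.8 in MD neural cells. Its rise of 3.67 ± 0.14 and 4.45 ± 0.14 (adjusted p = 4.68e-07 and 2.16e-07) was the largest of the 35 in both genotypes, at 12.7-fold and 21.9-fold. With each chromosome scaled separately it was 3.83 and 4.61. Cbx6 was called in MD alone, at 0.17 ± 0.06 (adjusted p = 0.0329, and 0.054 with the clone label as a block), against -0.14 ± 0.06 in R42A (adjusted p = 0.0774). That MD call was lost without 09 or 30. Among these 4 genes per kilobase, Cbx7 went from 61.1% ± 0.836 in R42A ESC to 11.7% ± 0.749 in R42A neural cells, and Cbx2 from 18.3% ± 0.668 to 68.8% ± 0.795. Their summed level was 53.4 ± 9.87 and 54.5 ± 0.0225 CPM per kb.

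The 250 bases before the annotated start of Cbx7 and of Cbx8 are shown because these neighbours in function moved in opposite directions. They are RefSeq sequence of GRCm38.p6, 5′ to 3′ on the gene's strand, with capitals marking the motif CCAAT on either strand.
Cbx7, chr15:79932647-79932896, minus strand: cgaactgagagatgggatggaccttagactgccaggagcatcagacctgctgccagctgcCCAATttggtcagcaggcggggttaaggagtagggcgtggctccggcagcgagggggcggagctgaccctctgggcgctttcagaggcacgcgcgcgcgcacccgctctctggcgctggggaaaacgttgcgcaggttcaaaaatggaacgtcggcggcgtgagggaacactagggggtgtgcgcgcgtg
Cbx8, chr11:119040914-119041163, minus strand: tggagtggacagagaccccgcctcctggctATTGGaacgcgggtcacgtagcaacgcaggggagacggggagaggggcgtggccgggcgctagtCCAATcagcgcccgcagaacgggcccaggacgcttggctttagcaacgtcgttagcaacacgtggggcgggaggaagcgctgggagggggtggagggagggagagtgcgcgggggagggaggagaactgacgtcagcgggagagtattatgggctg
Cbx7 has 1 such motif and 23 CpG dinucleotides, and Cbx8 has 2 motifs and 22 CpG. CCAAT occurs on either strand in 33.8% of 32817 such windows of all genes. The RefSeq start of Cbx7 lies inside the longer GENCODE gene, and so does its whole window. The GENCODE gene of Cbx8 reaches 119040969 and so covers part of the Cbx8 window. Part of Cbx7 overlaps Apobec3 on the other strand, with 100 of 6487 exon bases shared. Apobec3 averaged 147 CPM in R42A ESC, 136 in MD ESC, 13.1 in R42A neural cells and 10.7 in MD neural cells.

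**Figure D2:**
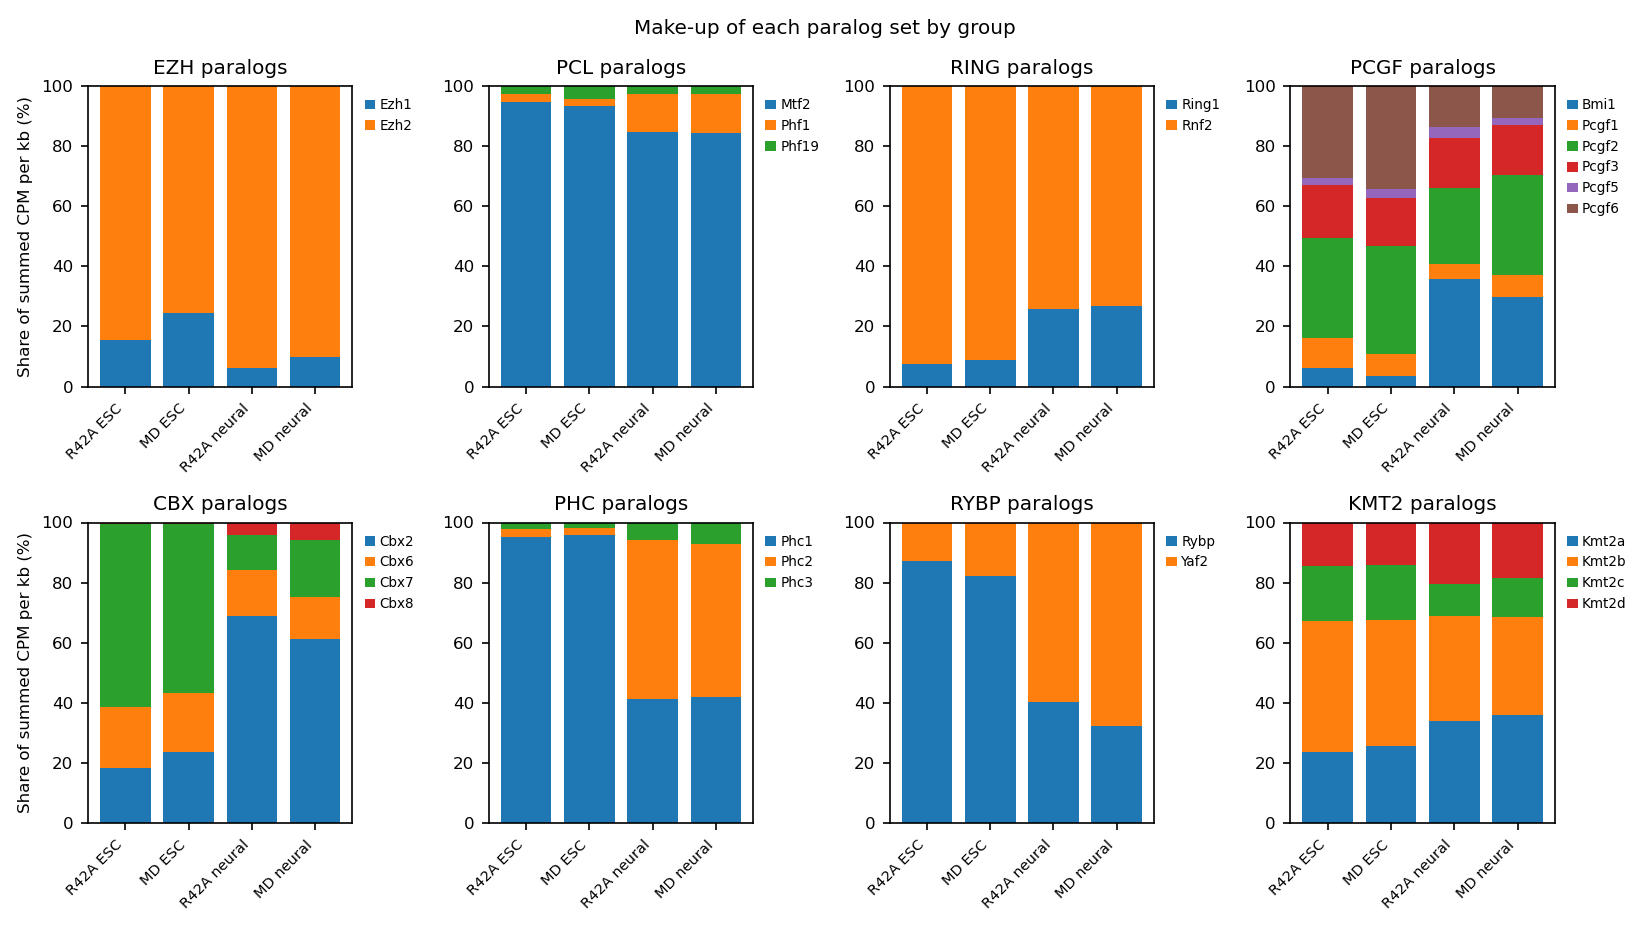
Share of each paralog in the summed CPM per kilobase of its set (stacked bars to 100%), as group means over 4 clones in ESC and 2 clone labels in neural cells. Cbx7 shrinks from 61.1% to 11.7% and Phc1 from 95.2% to 41.3% between R42A ESC and R42A neural cells, while Cbx2, Phc2 and Yaf2 grow.

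The PHC genes showed the same kind of exchange. Phc1, whose product forms chains through its SAM domain and brings Polycomb sites together, lay at 507, 494, 619 and 638 CPM in R42A ESC and 609.6, 599, 735 and 731 in MD ESC. It was at 115 and 114 CPM in R42A neural cells and 113 and 116 in MD neural cells, a fall of 2.18 ± 0.04 and 2.48 ± 0.04 (adjusted p = 4.64e-08 and 3.32e-08). In ESC of both genotypes Phc1 was the most abundant of the 35 per kilobase, at 107 CPM per kb in R42A and 126 in MD.

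Its paralog Phc2 moved the other way. It lay at 17.1, 16.6, 25.6 and 28.5 CPM in R42A ESC and 15.6, 17.8, 31 and 28.2 in MD ESC, and at 196 and 194 CPM in R42A neural cells and 181 and 189 in MD neural cells. The log2 changes were 3.48 ± 0.07 and 3.39 ± 0.07 (adjusted p = 4.93e-08 and 4.77e-08). Phc2 went from 2.74% ± 0.405 of the 3 PHC genes per kilobase in R42A ESC to 52.8% ± 0.128 in R42A neural cells, while their sum went from 111.9 ± 14.5 to 52.3 ± 0.281 CPM per kb. Phc3 was called in MD at 0.59 ± 0.11 (adjusted p = 0.00152, lost without 30) and not in R42A at 0.24 ± 0.11 (adjusted p = 0.0721), and the difference between these changes was not called (0.35 ± 0.15, adjusted p = 0.143).

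Phc1 and Bmi1 moved in opposite directions and have 1 annotated RefSeq start each, and the 250 bases before it are shown for both. Capitals mark GCCATNTT, the core of the motif of YY1, the mammalian relative of the fly Polycomb recruiter Pho.
Phc1, chr6:122340228-122340477, minus strand: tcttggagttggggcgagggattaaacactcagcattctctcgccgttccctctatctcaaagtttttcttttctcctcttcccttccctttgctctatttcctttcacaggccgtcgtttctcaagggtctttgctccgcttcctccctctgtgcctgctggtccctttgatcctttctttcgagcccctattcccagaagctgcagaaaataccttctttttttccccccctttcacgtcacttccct
Bmi1, chr2:18676768-18677017, plus strand: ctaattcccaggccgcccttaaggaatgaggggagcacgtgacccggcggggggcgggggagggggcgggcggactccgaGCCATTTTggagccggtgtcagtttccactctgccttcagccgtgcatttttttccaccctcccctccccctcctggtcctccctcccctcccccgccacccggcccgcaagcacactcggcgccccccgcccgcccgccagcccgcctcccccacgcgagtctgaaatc
Bmi1 holds 1 match and Phc1 none of the 7 motifs searched. The Phc1 window lies wholly inside the longer GENCODE gene, which reaches 122340561. That of Bmi1 ends right before the GENCODE start at 18677018, so the 2 windows are not placed alike. The Bmi1 window has 21 CpG and that of Phc1 8, against a median of 6 in all 32817 windows and of 20.5 in the 42 windows found for 29 of the 35 genes. GCCATNTT was found in 4 of the 42 windows (Bmi1, Jarid2, Pcgf2 and Phf19) and in 3.90% of all. The other motifs, read on both strands, were CCAAT in 12 of the 42, TTCCCGCC or TTTGGCGC of E2F in 2 (Pcgf5 and Scmh1) and 2.25% of all, and CCGGAAG of ETS factors in 1 (Phc2) and 6.91% of all. The octamer ATGCAAAT of POU factors was in 1 (Phc2) and 1.60% of all, TATAAA in 1 (Jarid2) and 12.4% of all, and the NRF1 palindrome in 1 (Phc3) and 0.777% of all. Pcgf5, Jarid2, Phc2 and Scmh1 have several starts. The motifs of Pcgf5, Jarid2 and Phc2 are not all at the same start, and Scmh1 has its motif at 1 of 2.

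Scmh1, a further member of canonical PRC1, was the other gene called in opposite directions. It lay at 20.04, 18.4, 17.2 and 16.6 CPM in R42A ESC and 24.8 and 23.7 in R42A neural cells, a rise of 0.28 ± 0.08 (adjusted p = 0.0113). In MD it lay at 29.6, 32.95, 24.5 and 24.4 and 27.98 and 29.3 CPM, a fall of 0.21 ± 0.08 (adjusted p = 0.0392) that was lost without 09 or 30 and was -0.02 with each chromosome scaled separately.

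In variant PRC1 the exchange was between Rybp and Yaf2, paralogs that stimulate the catalytic core. Rybp went from 170.4, 147, 123 and 135 CPM to 64.3 and 63.6 in R42A and from 132, 142, 107 and 102 to 46.9 and 46.5 in MD, a fall of 1.36 ± 0.07 and 1.63 ± 0.07 (adjusted p = 2.56e-06 and 9.64e-07). Yaf2 went from 6.77, 8.33, 8.48 and 9.38 CPM to 36.9 and 38.3 in R42A and from 8.96, 7.78, 13.3 and 10.2 to 38.7 and 38.7 in MD, a rise of 2.26 ± 0.12 and 2.13 ± 0.12 (adjusted p = 2.39e-06 and 2.78e-06). Rybp made up 87.1% ± 2.72 of the pair per kilobase in R42A ESC and 40.2% ± 0.847 in R42A neural cells, at a summed level of 34.8 ± 3.78 and 33.6 ± 0.449 CPM per kb.

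The remaining genes of variant PRC1 moved as well. L3mbtl2, a subunit of the PCGF6 complex, fell by 1.40 ± 0.06 and 1.85 ± 0.06 (adjusted p = 7.58e-07 and 2.24e-07), from 149.8, 151, 201 and 212 CPM to 58.2 and 59.4 in R42A and from 178, 198, 217 and 235 to 54.5 and 56.1 in MD. It fell alongside Pcgf6. Bcor, a subunit of the PCGF1 complex, rose by 1.34 ± 0.06 and 0.71 ± 0.06 (adjusted p = 1.11e-06 and 2.4e-05), from 39.1, 35.6, 46.04 and 41.2 CPM to 99.8 and 96.9 in R42A and from 58.7, 57.2, 65.3 and 62.6 to 96.6 and 103 in MD. Kdm2b, which brings that complex to CpG islands, rose in R42A by 0.51 ± 0.10 (adjusted p = 0.00261), from 89.3, 69.2, 125 and 112 CPM to 117 and 117, and was not called in MD (0.24 ± 0.10, adjusted p = 0.0617), at 72.2, 71.1, 101 and 97.99 and 87.9 and 90.9 CPM. The difference between the genotypes was -0.27 ± 0.14 and was not called (adjusted p = 0.223).

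Of the trithorax genes, 3 of 4 rose and 1 fell in both genotypes. Kmt2d, an enhancer methyltransferase, went from 89.8, 88, 133 and 143 CPM to 196 and 176 in R42A and from 75.5, 85.2, 140.2 and 136 to 159 and 170.3 in MD, with log2 changes of 1.01 ± 0.08 and 0.96 ± 0.08 (adjusted p = 1.55e-05 and 1.88e-05). Kmt2a, known for keeping Hox genes active, rose by 0.61 ± 0.05 and 0.61 ± 0.05 (adjusted p = 2.27e-05 and 1.97e-05), from 161, 166, 149 and 129 CPM to 258 and 258 in R42A and from 159.5, 171, 164 and 146 to 265 and 269.5 in MD. Kmt2b, which acts at bivalent promoters in ESC, rose by 0.24 ± 0.06 and 0.19 ± 0.06 (adjusted p = 0.0097 and 0.0274). The MD call of Kmt2b was lost without 09 or 30. Its ESC clones of the second run, at 199.4 to 211 CPM in R42A, lay above its neural level of 150.1 to 154 CPM. Kmt2c, the paralog of Kmt2d, fell by 0.85 ± 0.06 and 0.57 ± 0.06 (adjusted p = 1.2e-05 and 9.14e-05), from 175, 159, 122 and 104 CPM to 96.9 and 95.5 in R42A and from 154, 169, 114 and 108 to 114 and 116 in MD.

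Kdm6b rose strongly. It lay at 31.6, 29.9, 60.1 and 63.1 CPM in R42A ESC and 29.1, 23.3, 68.3 and 58.3 in MD ESC, and at 126 and 123 CPM in R42A neural cells and 202 and 216 in MD neural cells. The log2 changes were 1.96 ± 0.10 and 2.92 ± 0.11 (adjusted p = 2.17e-06 and 3.69e-07), and 2.11 and 3.08 with each chromosome scaled separately. In MD neural cells it was the fifth most abundant of the 35 per kilobase, at 30.1 CPM per kb, after Rnf2, Suz12, Cbx2 and Ezh2.

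**Figure D3:**
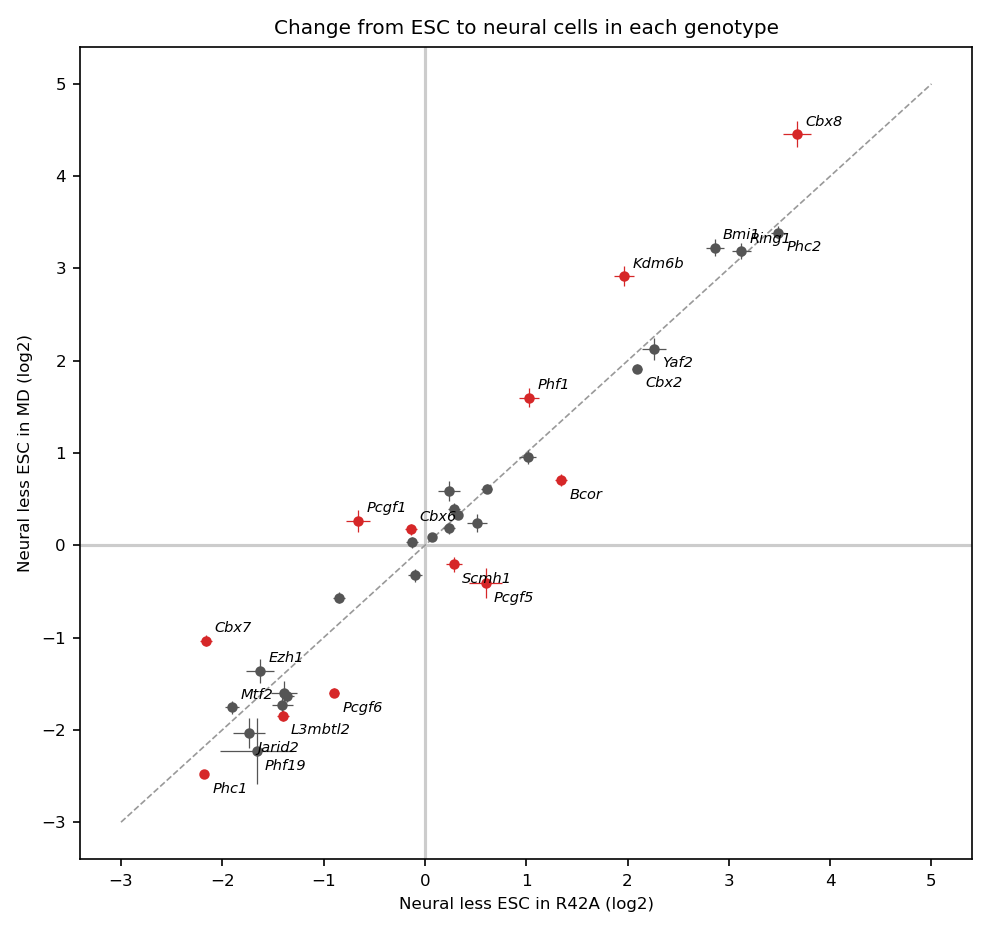
Log2 change from ESC to neural cells in R42A (horizontal) and MD (vertical) for each gene, with standard errors and a dashed line of equal change; red marks the 12 genes whose change differed between the genotypes. Cbx7 lies above the line in the lower left, at -2.16 and -1.03, and Kdm6b and Cbx8 lie above it in the upper right.

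The second question is how MD differs from R42A in ESC. Here 10 of the 35 genes were called higher in MD and 7 lower, against 17.1% and 19.4% of all 21567 genes tested. Their median log2 change was 0.003, and that of all genes -0.03. By role, 2 core subunits of PRC2 were higher and 1 lower of 4, 1 accessory subunit was higher of 5, 1 of the 2 catalytic subunits of PRC1 was lower, 3 PCGF genes were higher and 2 lower of 6, and 2 genes of canonical PRC1 were higher and 2 lower of 8. Of variant PRC1 2 were higher and 1 lower of 5. None of the 4 trithorax genes was called in edgeR, DESeq2 or limma, and 0 had an unadjusted p under 0.05 in edgeR, with log2 changes of 0.09 ± 0.07 for Kmt2a, -0.08 ± 0.05 for Kmt2b, -0.04 ± 0.06 for Kmt2c and -0.08 ± 0.06 for Kmt2d (adjusted p = 0.331, 0.264, 0.672 and 0.314).

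**Figure D4:**
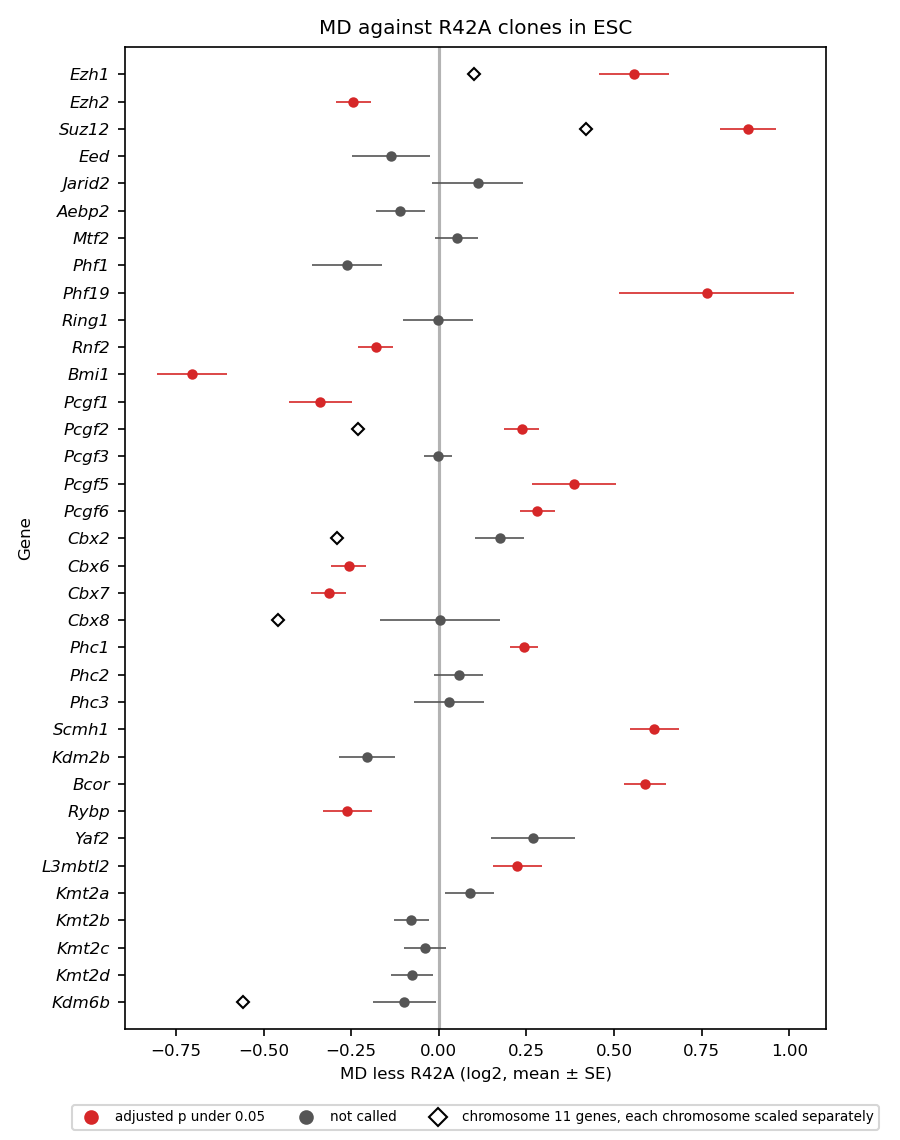
Log2 difference between MD and R42A ESC clones for each gene, with its standard error; red marks calls and open diamonds show the 6 genes of chromosome 11 with each chromosome scaled separately. Suz12 and Phf19 lie farthest to the right and Bmi1 farthest to the left, and all 6 diamonds lie left of their circles.

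Suz12 showed the largest difference among the 35 in ESC on the main scale, but not with each chromosome scaled separately, where Phf19 was at 0.78 and Bmi1 at -0.68. Its MD clones, at 583, 598, 448 and 479.6 CPM, lay above all R42A clones, at 312, 388, 239 and 219.5 CPM. The log2 change was 0.88 ± 0.08 (adjusted p = 0.000117), or 1.84-fold. Scaling each chromosome separately left 0.42 (adjusted p = 0.00188), so the gene was higher than its chromosome. Ezh1 was higher by 0.56 ± 0.10 (adjusted p = 0.00302), with R42A at 44.1, 59.5, 40.5 and 40.9 CPM and MD at 68.04, 67.6, 68.1 and 66.98, and no overlap. Its value with each chromosome scaled separately was 0.10 (adjusted p = 0.4). Ezh2 was lower by a small amount in both runs, -0.25 ± 0.05 (adjusted p = 0.00748). With each chromosome scaled separately it was at -0.13 (adjusted p = 0.0356). Eed was not called (-0.14 ± 0.11, adjusted p = 0.364).

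The other genes of chromosome 11 followed the chromosome or lay below it. Pcgf2 was higher in MD by 0.24 ± 0.05 (adjusted p = 0.00855), at 61.1, 58.9, 83.8 and 90.8 against 48.5, 50.8, 74.6 and 76.7 CPM, and turned to -0.23 (adjusted p = 0.0083) with each chromosome scaled separately. Cbx2 was not called at 0.17 ± 0.07 (adjusted p = 0.0713) and turned to -0.29 (adjusted p = 0.0139). Kdm6b was not called at -0.10 ± 0.09 (adjusted p = 0.423) and went to -0.56 (adjusted p = 0.00318) under that scaling. Cbx8 was at 0.00 ± 0.17 (adjusted p = 0.99), and at -0.46 (adjusted p = 0.0651) under it.

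Away from chromosome 11 the clearest differences were in PRC1. Bmi1 was lower in MD, at 7.64, 9.27, 7.63 and 7.05 CPM against 13.7, 12.9, 11.6 and 13.2, with no overlap (log2 change -0.71 ± 0.10, adjusted p = 0.000773, or 0.613-fold). Scmh1 was higher, at 29.6, 32.95, 24.5 and 24.4 CPM against 20.04, 18.4, 17.2 and 16.6, again with no overlap (0.62 ± 0.07, adjusted p = 0.000347). Bcor was higher, at 58.7, 57.2, 65.3 and 62.6 CPM against 39.1, 35.6, 46.04 and 41.2, and its groups did not overlap either (0.59 ± 0.06, adjusted p = 0.000208). Scmh1 and Bcor were called under all 18 alternatives tried, and Bmi1 under all but the first library run alone (-0.71 ± 0.10 became -0.61, adjusted p = 0.0696).

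Several smaller differences ran the same way in both library runs although most clone values overlap across them. Cbx7 was lower in MD by 0.26 in the first run and 0.36 in the second on the log2 scale of means, and by 0.31 ± 0.05 in the fit (adjusted p = 0.00202). Its clones lay at 148, 150.1, 185 and 194 CPM in MD and 181, 176, 235 and 253 in R42A, apart within each run. Phc1 was higher by 0.24 ± 0.04 (adjusted p = 0.00307), at 609.6, 599, 735 and 731 CPM against 507, 494, 619 and 638, also apart within each run. Pcgf6 was higher by 0.28 ± 0.05 (adjusted p = 0.00412) and L3mbtl2, of the same complex, by 0.22 ± 0.07 (adjusted p = 0.0305). Cbx6 was lower at -0.26 ± 0.05, Rybp at -0.26 ± 0.07, Pcgf1 at -0.34 ± 0.09 and Rnf2 at -0.18 ± 0.05 (adjusted p = 0.00513, 0.0148, 0.0194 and 0.0173). Of these only Pcgf1 had groups that did not overlap. The Pcgf1 and Rybp values were -0.22 and -0.15 and not called with each chromosome scaled separately.

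Phf19 and Pcgf5 were higher in MD with wide spread. Phf19 lay at 6.68, 15.8, 8.59 and 11.8 CPM in R42A, where clone A04 was lowest, and at 18.1, 20.9, 14.2 and 19.9 in MD, and the groups overlap (0.76 ± 0.25, adjusted p = 0.0399). Its call was lost without any 1 of 09, 30, A01, A02 or 47, at 0.68 to 0.87 (adjusted p = 0.0597 to 0.116). Pcgf5 lay at 16.2, 23.2, 12 and 13.1 CPM in R42A and 23.3, 25.7, 15.4 and 19.4 in MD (0.39 ± 0.12, adjusted p = 0.0381), and was lost without any 1 of A04, 09, 30, A01, A02 or 47, at 0.29 to 0.43 (adjusted p = 0.0622 to 0.114). The call of L3mbtl2 was lost without A04, 09, 30, A01 or 47 (0.17 to 0.23), that of Rnf2 without A10, 09, A01 or 47 (-0.18 to -0.13), that of Pcgf1 without A10, 30 or A02 (-0.31 to -0.25) and that of Rybp without 09 or 47 (-0.25 and -0.23). The adjusted p in these cases lay between 0.0501 and 0.0913. The 11 other calls were kept whichever clone was left out.

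The remaining genes were not called in ESC. Their log2 changes were 0.11 ± 0.13 for Jarid2, -0.11 ± 0.07 for Aebp2, 0.05 ± 0.06 for Mtf2, -0.26 ± 0.10 for Phf1, -0.00 ± 0.10 for Ring1 and -0.00 ± 0.04 for Pcgf3. They were 0.06 ± 0.07 for Phc2, 0.03 ± 0.10 for Phc3, -0.20 ± 0.08 for Kdm2b and 0.27 ± 0.12 for Yaf2. The lowest adjusted p among these 10 was 0.0728, for Phf1. Mesenchyme and smooth muscle markers summed higher in MD ESC and 7 of 10 ESC markers were lower there, as given above. Their part in these differences was not tested.

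The third question is how the genotypes differ after 6 days in neural medium. Of the 35 genes 9 were called higher in MD and 6 lower, against 17.4% and 16.3% of all 23844 genes tested, with a median log2 change of 0.02. Of the 6 genes of chromosome 11, 5 were among those higher. With each chromosome scaled separately 5 of the 35 were called higher and 6 lower, and 3971 and 3579 of all genes. The neuron and ESC markers had higher sums and the endoderm markers lower sums in MD neural cells, as given above. Their part in these differences was not tested. Without 09 or without 30 most of the 15 calls were lost, while those of Cbx7 and Kdm6b were kept. Such a fit drops the label in both stages. The log2 changes of the lost calls kept their direction. Without 09 and without 30 they were 0.65 and 0.71 for Ezh1, 0.45 and 0.46 for Suz12 and 0.46 and 0.66 for Pcgf1. The call of Aebp2 was also lost without A04 (adjusted p = 0.0838) and that of Rnf2 without A10 (adjusted p = 0.0608). A lone MD sum in those fits is assumed to vary like the other groups.

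Cbx7 differed most. Its MD cultures, at 75.7 and 78.4 CPM, lay above the R42A cultures, at 43.3 and 39.5 CPM, a log2 change of 0.89 ± 0.06 (adjusted p = 0.000128), or 1.85-fold. It was called under all 12 alternatives, at 0.83 to 0.97. Kdm6b was higher at 202 and 216 CPM against 126 and 123 (0.75 ± 0.10, adjusted p = 0.00161), and 0.30 (adjusted p = 0.0684) with each chromosome scaled separately. Cbx8 was higher at 12.9 and 13.8 CPM against 8.76 and 8.21 (0.65 ± 0.12, adjusted p = 0.0062), and 0.21 (adjusted p = 0.191) with each chromosome scaled separately.

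For the other chromosome 11 genes, scaling each chromosome separately removed the call or turned the direction. Ezh1 was higher by 0.68 ± 0.13 (adjusted p = 0.00801), at 28.4 and 27.5 CPM against 17.7 and 17.2. Suz12 was higher by 0.46 ± 0.10 (adjusted p = 0.0112), at 188 and 188 CPM against 136 and 137, and Pcgf2 by 0.41 ± 0.06 (adjusted p = 0.00267), at 80.4 and 86.1 CPM against 64.4 and 60.8. With each chromosome scaled separately these values were 0.23, 0.01 and -0.04, and none of the 3 was called (adjusted p = 0.131, 0.918 and 0.661). Cbx2 was at 0.02 ± 0.05 (adjusted p = 0.812), with 157 and 167 CPM in MD and 158 and 161 in R42A, and turned to -0.43 (adjusted p = 0.000917) under that scaling.

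Among PCGF genes, Pcgf1 was higher in MD by 0.56 ± 0.12 (adjusted p = 0.0101), at 9.02 and 7.94 CPM against 5.79 and 5.65. Pcgf5 was lower by 0.67 ± 0.16 (adjusted p = 0.0181), at 19.9 and 19.1 CPM against 32.04 and 29.8, and Pcgf6 by 0.34 ± 0.05 (adjusted p = 0.00265), at 38.01 and 38.8 CPM against 48.8 and 48.1. With each chromosome scaled separately Pcgf5 was at -0.53 and Pcgf6 at -0.19 (adjusted p = 0.0461 and 0.0254). Pcgf1, Pcgf5 and Pcgf6 all ran opposite to their ESC difference. Rybp was lower by 0.46 ± 0.07 and Kdm2b by 0.39 ± 0.10 (adjusted p = 0.00331 and 0.0241). Aebp2 and Rnf2 were lower by 0.23 ± 0.07 and 0.14 ± 0.04 (adjusted p = 0.0406 and 0.0478, and 0.0739 and 0.141 with each chromosome scaled separately), and Mtf2 and Kmt2c were higher by 0.22 ± 0.07 and 0.26 ± 0.06 (adjusted p = 0.0447 and 0.0181). The 20 genes not called had log2 changes of at most 0.26 in size, the largest being Bmi1 at -0.26 ± 0.09 (adjusted p = 0.0545).

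**Figure D5:**
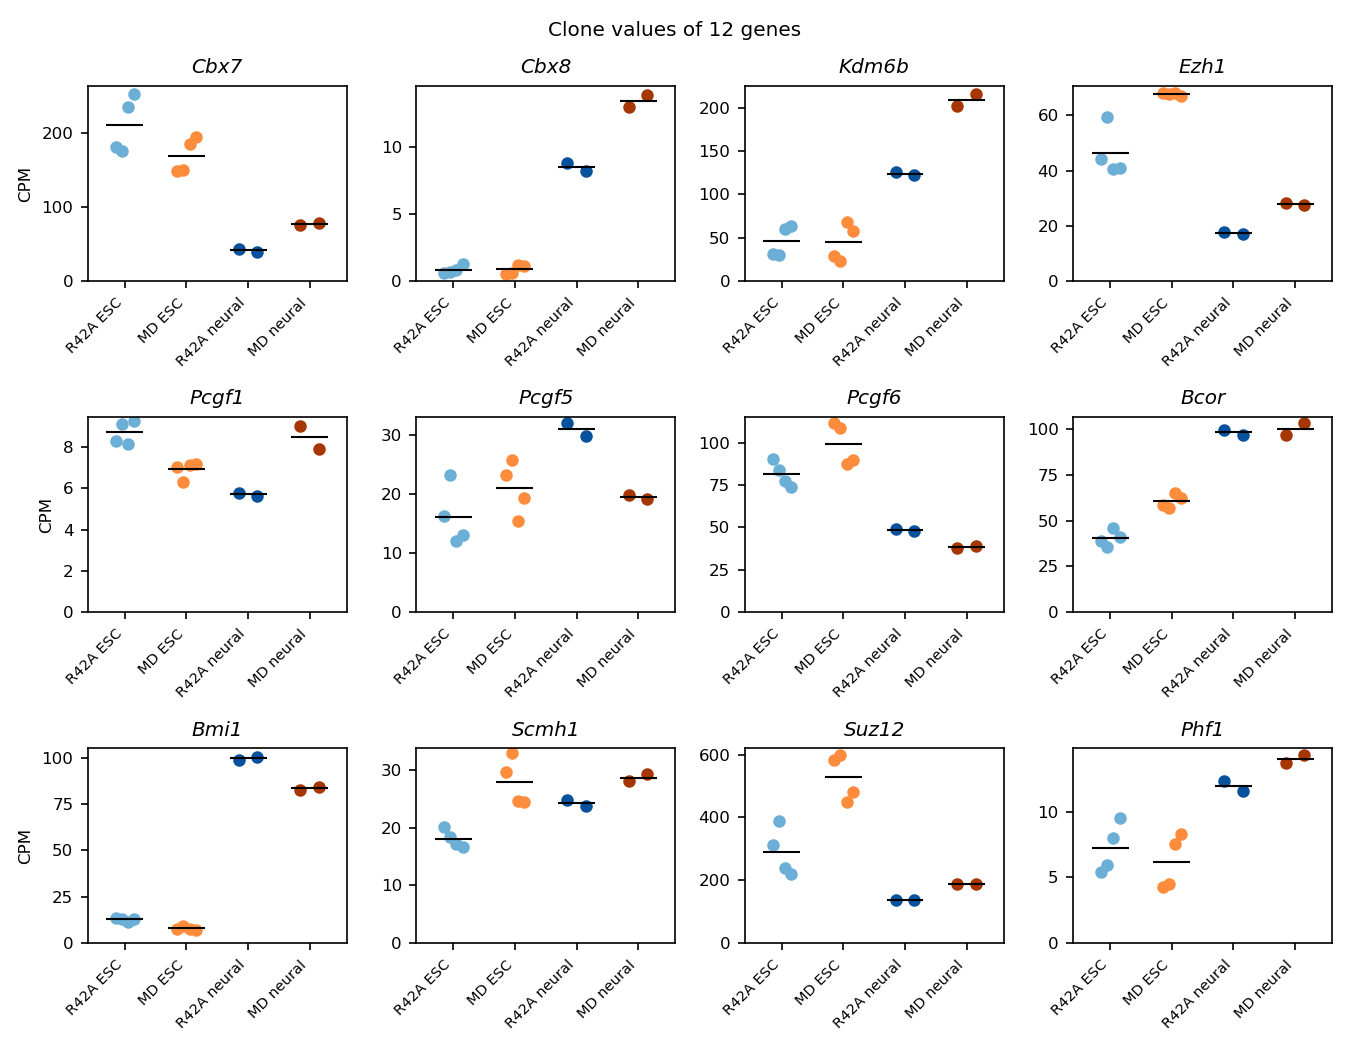
CPM of 12 genes in each clone sum (points) with the group mean (bar), on linear axes from 0. In the panel of Cbx7 the MD points lie below R42A within each ESC run and above R42A in neural cells, and in the panel of Suz12 they lie above R42A in both stages.

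The last question is whether the MD effect, meaning the signed log2 difference MD less R42A whatever its cause, itself differs between neural cells and ESC. For 6 of the 35 genes it was higher in neural cells and for 6 lower, against 11.9% and 11.1% of all genes tested. These differences use the ESC clones of the first run. The MD effect on Cbx7 was higher by 1.13 ± 0.08 (adjusted p = 0.000403), from lower in ESC to higher in neural cells. That on Kdm6b was higher by 0.96 ± 0.14 (adjusted p = 0.00434), on Pcgf1 by 0.93 ± 0.16 (adjusted p = 0.00844) and on Cbx8 by 0.78 ± 0.18 (adjusted p = 0.0224). Phf1 and Cbx6 followed with 0.57 ± 0.14 and 0.31 ± 0.09 (adjusted p = 0.024 and 0.0433).

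Of the 6 genes with a lower MD effect in neural cells, 2 are PCGF genes, 2 belong to canonical PRC1 and 2 to variant PRC1. The effect on Pcgf5 was lower by 1.01 ± 0.23 (adjusted p = 0.0203), on Pcgf6 by 0.70 ± 0.07 (adjusted p = 0.00124), on Bcor by 0.64 ± 0.08 (adjusted p = 0.00304) and on L3mbtl2 by 0.44 ± 0.08 (adjusted p = 0.00976). Those on Scmh1 and Phc1 were lower by 0.49 ± 0.11 and 0.30 ± 0.06 (adjusted p = 0.0193 and 0.0135). With the clone label as a block, which pairs ESC and neural cells of the same label, Phf1, Cbx6, Cbx8 and Phc1 were no longer called (adjusted p = 0.0766, 0.0819, 0.0647 and 0.0574). Without 09 or without 30 the 12 calls were lost in edgeR, and without A04 or A10 that of Kdm6b was. The log2 differences kept their direction. Without 09 and without 30 they were 1.14 and 1.11 for Cbx7, 1.17 and 0.76 for Kdm6b and -1.11 and -0.91 for Pcgf5. For Bmi1 and Suz12, which differed in ESC, the difference between the stages was 0.37 ± 0.12 and -0.32 ± 0.14 and was not called (adjusted p = 0.074 and 0.142).

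Genes outside the 35 that act in the same machinery were counted from lists chosen with earlier results of these data known. Of 24 further PRC1 genes 11 were called higher and 10 lower in R42A neural cells than in ESC, and 11 and 12 in MD. Over all genes 37.9% were higher and 40.4% lower in R42A and 40.3% and 41% in MD. Among the 24, L3mbtl3 rose by 2.78 ± 0.14 in R42A, and Auts2, a partner of PCGF3 and PCGF5, rose by 2.49 ± 0.07 in R42A.

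Between MD and R42A 5 of these 24 genes were called higher and 6 lower in ESC, and 4 and 7 in neural cells, against 17.1% and 19.4% of all genes in ESC and 17.4% and 16.3% in neural cells. Sfmbt2 was higher in MD ESC by 1.32 ± 0.16 and Scml2 by 1.26 ± 0.32 (adjusted p = 0.000417 and 0.0141 in edgeR). Of 8 further PRC2 genes 1 was called higher and 3 lower in ESC, and 1 and 4 in neural cells. Epop, a PRC2.1 subunit of ESC whose gene lies on chromosome 11, averaged 191 ± 98.5 CPM in R42A ESC, 234 ± 89.3 in MD ESC, 76.6 ± 6.495 in R42A neural cells and 48.7 ± 1.86 in MD neural cells. It fell by 0.54 ± 0.16 in R42A and 1.83 ± 0.17 in MD (adjusted p = 0.0172 and 3.36e-05 in edgeR). These falls are against the ESC clones of the first run alone, while the ESC means cover both runs.

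Of 10 subunits of PR-DUB, the complex that removes the PRC1 mark, 7 were called higher in neural cells and 2 lower in each genotype, where over all genes 37.9% were higher and 40.4% lower in R42A and 40.3% and 41% in MD. Asxl3 rose most, by 3.04 ± 0.17 in R42A and 4.18 ± 0.18 in MD (adjusted p = 3.18e-06 and 7.71e-07 in edgeR). Of 20 further COMPASS and trithorax genes 10 were called higher and 6 lower in R42A, and 9 and 7 in MD. Kmt2e rose by 1.67 ± 0.05 and 2.41 ± 0.06, and Dpy30, a core subunit of the KMT2 complexes, fell by 1.84 ± 0.08 and 2.15 ± 0.08. In ESC 1 of these 20 genes was called higher in MD and 5 lower, against 17.1% and 19.4% of all genes. The core subunits Rbbp5, Wdr5 and Ash2l were among the 5, at -0.47 ± 0.04, -0.43 ± 0.04 and -0.49 ± 0.11 (adjusted p = 0.000102, 0.000213 and 0.00919). The 4 methyltransferases themselves were not called. Ash2l lies on chromosome 8, whose genes were lower as a whole. Of the 5 H3K4 demethylases, which erase the trithorax mark, Kdm5b and Kdm1a fell in R42A by 1.53 ± 0.04 and 1.14 ± 0.06. Kdm5d, on the Y chromosome, averaged 0.449 ± 0.371 CPM in R42A ESC and 2.995 ± 1.502 in MD ESC.

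Of 30 developmental regulators known as Polycomb targets in ESC, 23 were called higher and 3 lower in neural cells in each genotype. Over all genes 37.9% were higher and 40.4% lower in R42A, and 40.3% and 41% in MD. The median log2 changes of the 30 were 3.76 in R42A and 3.19 in MD. Zic1 averaged 0.0816 ± 0.0561 CPM in R42A ESC and 268 ± 13.0 in R42A neural cells. Between MD and R42A 4 of the 25 that could be tested were higher and 3 lower in ESC, and 5 and 4 of 30 in neural cells. The shares of all genes were 17.1% and 19.4% in ESC and 17.4% and 16.3% in neural cells. The neuronal factor Neurog2 was higher in MD neural cells by 2.40 ± 0.17 (adjusted p = 0.000179 in edgeR). It lay at 26.3 ± 0.819 CPM there, against 4.97 ± 0.208 in R42A neural cells.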

How the data were processed

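RNA was sequenced as 32 libraries of tagged mouse cells. The deposited tables hold expected counts per gene from RSEM 1.3.0 after Trim Galore 0.60 and STAR 2.7.1a on mm10, per the submitters' processing notes, which also name DESeq2. The annotation release and the strand of counting are not given in the sources used here. Genes were placed with GENCODE vM21.

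Expected counts were rounded and summed per clone, since libraries of a clone are not separate clones. The 92 spike-in entries totalled 0 and were left out. Genes passed with filterByExpr at a minimum count of 10. Tests used edgeR 4.0.16 in R 4.3.3 (quasi-likelihood, robust, TMM), with Benjamini-Hochberg adjustment over all genes and a call at an adjusted p under 0.05. MD and R42A ESC were compared over 8 clone sums with library run as a term. The other comparisons came from 1 fit of 8 sums with shared clone labels. The same clone labels occur in ESC and neural cells, so a fit with the label as a block was also made. CPM use TMM-scaled totals, and CPM per kb divides by exon length. The fits were tested on simulated data. Of simulated 2-fold changes, 76% were recovered between MD and R42A in ESC and 46% in neural cells. Between the stages 46% were recovered in R42A and 44% in MD, and 26% for the difference of the MD effect. The changed genes were drawn at random from all genes tested, weakly counted ones included, so these shares do not describe the 35. A gene not called may still differ. Among the 35, genes not called had log2 changes of at most 0.27 in ESC and 0.26 in neural cells in size. Between the stages the limit was 0.24 in R42A and 0.27 in MD, and 0.56 for the difference of the MD effect. Standard errors measure the spread between clone sums. In the fit of 8 sums all groups share 1 estimate of that spread. Standard errors in neural cells thus also carry the spread of ESC clones. Over the 35 genes the median log2 gap between A04 and A10 was 0.129 in ESC and 0.023 in neural cells. Between 09 and 30 it was 0.105 in ESC and 0.049 in neural cells.

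Genes described clone by clone were those called with a log2 change of at least 0.5 in size, and those of chromosome 11; of other lists, the 3 largest called changes. Ezh2, Rnf2 and, in single comparisons, genes with smaller changes were given clone by clone after their values were seen. Some genes this rule names are not reported here. The members and lists were chosen with earlier results of these data known. Alternatives used limma 3.58.1 and DESeq2 1.42.0, other scalings, no filter, and each clone left out.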

Additional observations from a re-analysis of the deposited data

Results flagged for a closer look

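In 12 of the 35 genes the signed log2 difference, MD less R42A, itself differed between neural cells and ESC, by the test of that difference in edgeR. It was shifted upward in neural cells by 1.13 for Cbx7, 0.96 for Kdm6b, 0.93 for Pcgf1, 0.78 for Cbx8, 0.57 for Phf1 and 0.31 for Cbx6. It was shifted downward there, by -1.01 for Pcgf5, -0.70 for Pcgf6, -0.64 for Bcor, -0.49 for Scmh1, -0.44 for L3mbtl2 and -0.30 for Phc1. These are shifts of a signed value, so the difference could shrink, grow or change sign. None of the 12 was called without 09 or without 30.

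Pcgf1 in MD ESC clone 30 stood apart, at 6.31 CPM against 7.05 to 7.195 CPM in the other MD clones. Such a gap arises by chance in about 1 group of 20, and 70 groups were looked at.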

How the results depend on the processing

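Of the 35 genes 17 were called between MD and R42A in ESC, against 5 in the first library run alone, 9 in the second alone and 5 with no library run term. Over all genes these counts were 7862, and 1769, 4878 and 3084. In neural cells 15 were called, and 24 where the neural sums were fitted alone, with 8030 and 13643 over all genes. Leaving out each clone gave 12 to 18 calls in ESC (5745 to 9329 over all genes), 2 to 18 in neural cells (1538 to 9967) and 0 to 18 for the difference of the MD effect (77 to 8759, from 12 and 5472). With the clone label as a block that difference was called for 8 of the 35 genes and for 3853 of all. With each chromosome scaled separately Pcgf2 turned to -0.23 in ESC and -0.04 in neural cells, and Cbx2 to -0.29 and -0.43. Deviations of libraries with the same number had correlations from -0.346 to 0.590, so the numbers were not taken to pair them. Single libraries with this replicate block gave 21, 15, 30, 32 and 15 calls (ESC, neural, R42A stage, MD stage, difference of the MD effect), and 22, 13, 31, 32 and 14 without it. Over all genes these were 10315, 8649, 17657, 18101 and 7372, and 10110, 8538, 17799, 18235 and 7188. The clone block changed no call beyond those printed beside results. With 2 sums a group in neural cells and stage fits, the number of clones limits precision; the lone sum left is assumed to vary like the other groups. The causes of these shifts were not tested.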
